A study of Homo sapiens with 8 samples.

Results

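Origins with strong GC skew are the origins of replication in which 1 DNA strand carries nearly all of the guanines. GC skew is (G−C)/(G+C), counted on the reference strand from the start to the end of an origin, and origins on chromosomes 1 to 22 entered where its absolute value was 0.7 or more. The choice used the hg38 sequence and no read count. Of the origins on these chromosomes, 1721 of 41785 met it in the table that sets WT against ORC1Δ, 1837 of 43698 in the table of WT and ORC2Δ, and 1602 of 46021 in the table of WT and ORC5Δ. Merged where they overlapped by at least 1 bp, they make 2277 loci of 56317.

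The data are SNS-seq, which sequences the short nascent strands that form when an origin fires. HCT116 colon cancer cells that lack p53 (HCT116 p53−/−, called WT here) were compared with 3 lines made from them with CRISPR–Cas9, ORC1Δ, ORC2Δ, and ORC5Δ, each without 1 subunit of the origin recognition complex, and all 4 lines lack p53. Each line had 2 biological replicates, 8 samples in all, but the deposited counts merge them, so no spread between replicates and no test between lines can be given. The intervals below describe reads or origins inside 1 table. They say nothing of how replicates vary, because origins of 1 line share its library.

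The origin recognition complex helps to load the MCM2–7 helicase onto DNA before S phase, which is called licensing. In human cells origins have no fixed consensus sequence, and many lie at G-rich sequences that can fold into G-quadruplexes, 4-stranded structures made of stacked guanines. GC skew is a property of the same kind of sequence, and it also arises where a G-rich RNA strand can stay paired with its template as an R-loop. In simple repeats and minisatellites a strand can be G-rich over a long stretch.

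To show what such an origin looks like, 150 bases of the G-rich strand of hg38 are printed for origins that differ in the base that accompanies G. The first set holds G and T. In these lines capitals mark TGTG, the commonest 4-base word on the G-rich strand of this class. The origin near C1orf174 was chosen after its values were seen, as the one with the largest rise.
CACNG4 intron, chr17:67026090-67026239, + strand: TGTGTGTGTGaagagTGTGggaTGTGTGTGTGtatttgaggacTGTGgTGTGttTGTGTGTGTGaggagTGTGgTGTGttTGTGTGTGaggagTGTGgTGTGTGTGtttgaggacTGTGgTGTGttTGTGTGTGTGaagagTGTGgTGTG
near KCNF1, chr2:10953790-10953939, + strand: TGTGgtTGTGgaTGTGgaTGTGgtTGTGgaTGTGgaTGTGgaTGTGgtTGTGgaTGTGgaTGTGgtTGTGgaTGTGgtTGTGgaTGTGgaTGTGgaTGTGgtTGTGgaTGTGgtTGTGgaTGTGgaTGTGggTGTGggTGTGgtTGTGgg
near C1orf174, chr1:3930444-3930593, − strand: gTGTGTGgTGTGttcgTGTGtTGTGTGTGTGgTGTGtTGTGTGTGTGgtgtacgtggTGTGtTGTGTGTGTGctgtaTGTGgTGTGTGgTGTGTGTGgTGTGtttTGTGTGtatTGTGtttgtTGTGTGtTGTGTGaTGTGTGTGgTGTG

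The second set holds A and T in more even amounts beside G. Capitals mark GATG, the commonest word of this class, which is a rotation of the GGAT repeat. KLHDC4 and the origin near TIMM22 are among the origins that stood highest in all 3 knockout lines, the C16orf95 stretch is almost pure GGAT repeat, and the stretch near TMEM132C belongs to the origin that stood lowest. Origins between genes are named by the nearest protein-coding gene on the chromosome, at whatever distance, which for TMEM132C is over 1 Mb.
KLHDC4 intron, chr16:87738819-87738968, − strand: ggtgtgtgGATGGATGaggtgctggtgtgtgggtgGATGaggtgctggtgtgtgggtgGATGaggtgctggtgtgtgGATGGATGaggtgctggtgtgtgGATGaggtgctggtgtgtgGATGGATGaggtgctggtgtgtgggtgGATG
near TIMM22, chr17:993288-993437, − strand: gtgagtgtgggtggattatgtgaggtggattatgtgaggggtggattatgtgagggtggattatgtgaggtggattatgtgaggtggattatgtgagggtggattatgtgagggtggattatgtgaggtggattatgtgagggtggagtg
near C16orf95, chr16:86889357-86889506, + strand: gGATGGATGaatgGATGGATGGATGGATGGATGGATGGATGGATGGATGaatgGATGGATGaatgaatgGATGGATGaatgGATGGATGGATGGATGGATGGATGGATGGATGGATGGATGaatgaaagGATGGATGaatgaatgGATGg
near TMEM132C, chr12:127123661-127123810, + strand: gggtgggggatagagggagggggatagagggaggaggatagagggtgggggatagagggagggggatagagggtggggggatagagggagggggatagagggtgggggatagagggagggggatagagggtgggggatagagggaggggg

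The third set holds G and A, so that the strand is nearly all purine. Capitals mark GGAG, the commonest word of this class. The origin was lower in all 3 knockout lines than in WT.
CACNA2D2 intron, chr3:50374272-50374421, + strand: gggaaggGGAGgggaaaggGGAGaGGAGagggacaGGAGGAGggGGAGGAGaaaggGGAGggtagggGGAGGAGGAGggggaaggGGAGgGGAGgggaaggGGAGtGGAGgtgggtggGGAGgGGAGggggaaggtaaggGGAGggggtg

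The 3 sets stand for 3 classes, cut on (A−T)/(A+T) of the G-rich strand. The polypurine class holds the loci at 0.5 or more (303 loci), the GT class those at -0.5 or less (212 loci), and the balanced class the other 1762. The GT class was cut as the mirror image of the polypurine class after the values had been seen. TGTG made up 14.3% of the 4-base words of the GT class and 0.862% of those of all loci on their G-rich strand. GATG made up 6.08% in the balanced class and 0.911% in all loci, and GGAG 6.47% in the polypurine class and 1.84% in all loci.

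The loci were repetitive, but mostly in an imperfect way. A run of at least 4 exact GGAT copies, counting its rotations and both strands, was found in 28.6% of strong-skew loci and 2.00% of all loci, and all 652 such loci were of the balanced class. A run of at least 4 GGAA copies was found in 5.62% and 1.89%, and in 32.0% of the polypurine class. A run of at least 8 GT copies was found in 1.89% and 0.973%, and in 8.02% of the GT class. These searches covered whole loci, whose median width was 678 bp for strong skew and 547 bp for all loci. An exact tandem tract of any unit up to 100 bases was present in 56.9% of strong-skew loci (95% Wilson interval 54.9 to 58.9%) and 13.6% of all loci, yet only 2.90% (2.28 to 3.67%) had such tracts over 50% of their bases. The commonest leading period was 4 bases, in 14.4% of the loci.

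Strong skew did not come with a high GC content. The median GC content of the loci was 48.9%, against 51.7% for all loci. The usual G4Hunter cutoff for a G-quadruplex motif, in windows of 25 bases, was reached in 66.4% of strong-skew loci (64.4 to 68.3%) and 84.6% of all loci. The classes differed in this score, with 93.7% (90.4 to 95.9%) of the polypurine class, 63.1% (60.8 to 65.3%) of the balanced class, and 54.7% (48.0 to 61.3%) of the GT class reaching it. Runs of 3 or more G came at a median of 51.1 per kb in the polypurine class and 16.5 per kb in the GT class.

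In WT cells these origins had about the same median reads per origin as all origins, counting those that were not called as peaks in WT. Among origins called in WT, the strong-skew ones were more often among the strongest, as given below for the table of ORC1Δ. Strength is given in RPM, the reads of an origin per 1000000 reads of its line in the table. The median WT strength of strong-skew origins was 17.6 RPM in the table of ORC1Δ (95% interval of the median 16.7 to 18.4), 15.96 RPM in that of ORC2Δ (15.2 to 16.6), and 17.4 RPM in that of ORC5Δ (16.6 to 18.2), against 17.8, 16.9, and 15.99 RPM for all origins. They were wider than other origins, with a median of 683 bp against 534 bp in the table of ORC1Δ, and per kb of length they were weaker. Their medians were 27.4, 25.3, and 27.3 RPM per kb, where all origins had 34.0, 32.0, and 30.3 RPM per kb. The middle of the distribution was broader, with quartiles of 11.2 and 30.4 RPM against 13.1 and 26.5 RPM in the same table.

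The strong-skew origins were, however, found less often in the WT peak list. An origin enters a table when it is a peak in WT, in the knockout line, or in both. Of the strong-skew origins, 47.3% (44.9 to 49.7%) overlapped the WT list in the table of ORC1Δ, 43.4% (41.1 to 45.7%) in that of ORC2Δ, and 50.7% (48.2 to 53.1%) in that of ORC5Δ, while all origins did so in 71.4%, 68.1%, and 64.7%. Over the merged loci, 28.1% (26.3 to 29.9%) were on all 3 knockout lists and not on that of WT, against 7.27% of all loci, and 33.1% were on all 4 lists, against 31.9%. The WT list alone held 0.878% of strong-skew loci and 4.35% of all loci.

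The question put to the tables was how much each origin changed without an ORC subunit, with up and down called at 1.5-fold in RPM. In ORC1Δ cells 60.2% (57.9 to 62.5%) of the strong-skew origins were up, beside 7.00% of all origins, and 0.174% were down, beside 3.95%. In ORC2Δ cells 51.0% (48.7 to 53.3%) were up, beside 4.62%, and 0.218% were down, beside 3.61%. In ORC5Δ cells 32.8% (30.6 to 35.2%) were up, beside 2.05%, and 0.125% were down, beside 0.682%. In the same order, the median log2 fold was 0.70 (0.67 to 0.73), 0.60 (0.57 to 0.62), and 0.43 (0.41 to 0.45), where all origins had -0.01, -0.04, and -0.00. The 3 comparisons share the WT cells.

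The share of reads that fell in these origins moved the same way. They held 4.31% of the WT and 6.48% of the ORC1Δ reads of the first table, 4.22% of the WT reads and 6.18% of the ORC2Δ reads of the second, and 3.88% of the WT reads and 4.88% of the ORC5Δ reads of the third. The strand that carried the guanines made little difference, because the median log2 fold in ORC1Δ cells was 0.70 for positive skew (n = 867) and 0.70 for negative skew (n = 854). The stronger the skew, the higher the median, from 0.57 at an absolute skew of 0.7 to 0.8 to 0.76 at 0.8 to 0.9 and 0.86 from 0.9 in ORC1Δ cells. ORC2Δ cells had 0.43, 0.69, and 0.82, and ORC5Δ cells had 0.30, 0.49, and 0.61.

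**Figure D1:**
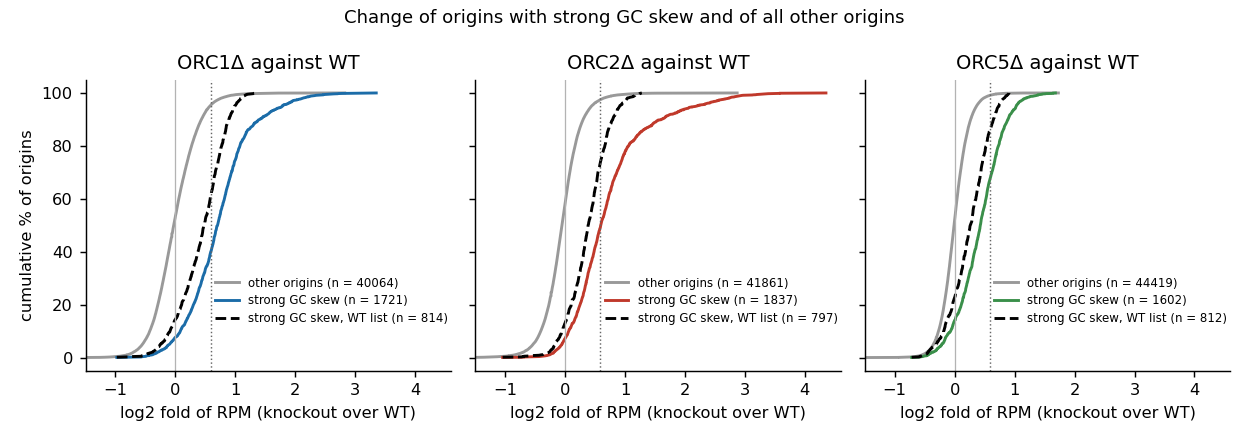
Cumulative share of origins (y axis, %) by log2 fold of RPM over WT (x axis) in each knockout line, for other origins (grey), origins with strong GC skew (colour), and those of them on the WT peak list (dashed black); the dotted line is 1.5-fold. The strong-skew curves lie to the right of the grey curves in all 3 lines, with medians of 0.70, 0.60, and 0.43, and the WT-list origins lie between.

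A peak that is called only in the knockout line enters the table through its knockout reads. Changes by skew band, composition bin, G4Hunter score, gene position, strand, and distance to chromosome ends include such origins and are not given without them. Overall shares and medians, classes, and neighbour differences are also given for strong-skew origins on the WT list, whose entry needed no knockout peak. Of these, 39.1% (35.8 to 42.5%; n = 814) were up in ORC1Δ cells, 26.7% (23.8 to 29.9%; n = 797) in ORC2Δ cells, and 14.3% (12.05 to 16.9%; n = 812) in ORC5Δ cells, where all origins on the WT list were up in 1.89%, 1.27%, and 0.537%. Their medians were 0.48, 0.38, and 0.26. The 76, 70, and 73 strong-skew origins on the WT list, but not on that of the knockout line in the same table, had medians of 0.34, 0.24, and 0.15. Other origins of this kind had -0.28, -0.35, and -0.20. Such origins can be on the list of another knockout line.

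Among WT-list origins the increase was present at every strength. Split into 4 groups at the quartiles of WT RPM of all WT-list origins, the strong-skew origins of ORC1Δ cells had medians of 0.46, 0.57, 0.62, and 0.38 from the weakest to the strongest group, and the other origins had -0.12, -0.12, -0.13, and -0.14. The strongest group held 389 of the 814, more than an even split over the 4 groups would give, and had the lowest median. In ORC5Δ cells the 4 medians were 0.30, 0.31, 0.41, and 0.15.

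Origins nearby did not share the change. For each strong-skew origin with at least 3 other origins of weaker skew within 100 kb, the median log2 fold of those neighbours was subtracted. The median difference was 0.81 (0.78 to 0.83; n = 1499) in ORC1Δ cells, 0.67 (0.65 to 0.71; n = 1614) in ORC2Δ cells, and 0.45 (0.43 to 0.47; n = 1419) in ORC5Δ cells. The strong-skew origin stood above its neighbours in 94.7%, 95.1%, and 88.0% of cases.

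The base that accompanies G separated the polypurine class from the other 2, except from the few GT origins on the WT list in ORC5Δ cells. The place of the GT class depended on which origins were taken. Over all strong-skew origins in ORC1Δ cells the GT class was up in 92.2% (85.8 to 95.8%; n = 115), the balanced class in 65.1% (62.5 to 67.5%; n = 1406), and the polypurine class in 7.50% (4.597 to 12.004%; n = 200). In ORC2Δ cells these shares were 92.3% (87.8 to 95.3%; n = 196), 50.7% (48.2 to 53.3%; n = 1451), and 10.5% (6.92 to 15.7%; n = 190). In ORC5Δ cells they were 62.5% (50.3 to 73.3%; n = 64), 35.9% (33.4 to 38.5%; n = 1346), and 1.56% (0.533 to 4.49%; n = 192). All origins were up in 7.00%, 4.62%, and 2.05%, so the share of the polypurine class was near that of all origins in ORC1Δ and ORC5Δ cells and above it in ORC2Δ cells.

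On the WT list the lead of the GT class was lost. There 9 of 17 GT origins (31.0 to 73.8%) and 45.7% (42.0 to 49.5%) of 672 balanced origins were up in ORC1Δ cells. In ORC2Δ cells 5 of 15 GT origins (15.2 to 58.3%) and 30.4% (27.0 to 33.9%) of 678 balanced origins were up. In ORC5Δ cells the order was the other way, with 1 of 15 GT origins (1.19 to 29.8%) and 17.0% (14.3 to 19.97%) of 678 balanced origins up. The intervals overlapped in each line. The polypurine class stayed lowest, with 2 of 125 (0.440 to 5.65%), 2 of 104 (0.529 to 6.74%), and 0 of 119 (0 to 3.13%) up. In ORC5Δ cells its interval overlapped that of the GT class.

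The medians over all strong-skew origins followed the order GT, balanced, polypurine. The GT class had median log2 folds of 1.61 (1.39 to 1.86), 1.90 (1.74 to 2.06), and 0.72 (0.58 to 0.89) in the order ORC1Δ, ORC2Δ, ORC5Δ. The balanced class had 0.73 (0.71 to 0.75), 0.59 (0.56 to 0.61), and 0.47 (0.44 to 0.49). The polypurine class had 0.11 (0.07 to 0.17), 0.18 (0.15 to 0.24), and -0.00 (-0.04 to 0.03). The values changed gradually with composition, as the plot by the base that accompanies G shows.

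**Figure D2:**
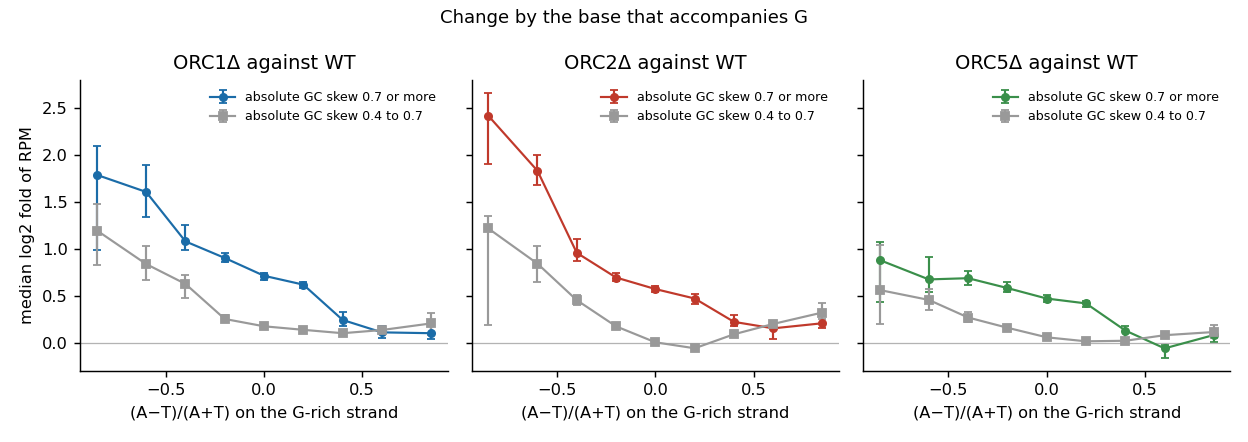
Median log2 fold of RPM over WT (y axis) by (A−T)/(A+T) on the G-rich strand (x axis, T-rich at left, A-rich at right) for strong-skew origins (colour) and for those with an absolute skew of 0.4 to 0.7 (grey); bars are 95% order-statistic intervals of the median, and bins with fewer than 10 origins are left out. The coloured medians fall from 1.79, 2.42, and 0.88 in the most T-rich bin to 0.11, 0.21, and 0.09 in the most A-rich bin.

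Origins of weaker skew showed the T-rich side of this order as well. At an absolute skew of 0.4 to 0.7, the median in ORC1Δ cells was 1.197 (n = 17) in the most T-rich bin and 0.18 (n = 3550) in the middle bin. In ORC2Δ cells the most T-rich bin had 1.22 (n = 18) and the middle bin 0.01 (n = 3119). On the A-rich side of this band the ORC2Δ median was higher again, at 0.33 (n = 114).

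The GT class was the weakest in WT cells. Its median WT strength was 7.48 RPM, 4.82 RPM, and 9.45 RPM in the 3 tables, with medians of 48, 32, and 65 WT reads, and its median knockout strength was 22.3, 18.4, and 16.1 RPM. Only 14.8%, 7.65%, and 23.4% of it was on the WT list. On the ORC2Δ list alone, and on none of the other 3, were 40.1% (33.7 to 46.8%) of the GT loci, against 9.53% of strong-skew loci and 8.40% of all loci. Among all loci of GT composition, a set that includes those of strong skew, 28.0% (23.8 to 32.6%) were on that list alone. These were 111 of 397 loci, and the strong-skew GT loci were 85 of 212. GT loci of weaker skew were not counted apart. The 17, 15, and 15 GT origins on the WT list had median log2 folds of 0.64 (0.27 to 0.82), 0.53 (0.05 to 0.73), and 0.11 (-0.12 to 0.47), and the balanced origins on that list had 0.56 (0.53 to 0.58), 0.44 (0.40 to 0.47), and 0.32 (0.30 to 0.36). The large values of this class thus rest on origins that were not called in WT cells and entered the tables through a knockout peak.

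Among strong-skew origins the change was smaller where the G4Hunter score was higher. Among balanced strong-skew origins the median log2 fold in ORC1Δ cells was 0.97 where the highest score was under 1 (n = 49) and 0.42 where it was 2 or more (n = 339). In ORC2Δ cells it was 0.97 and 0.36, and in ORC5Δ cells 0.66 and 0.16. Their WT strength moved with the score too, with a median of 9.66 RPM under 1 and 39.4 RPM from 2 in the table of ORC1Δ, and its part in the result was not tested. Other origins had 0.38 and -0.14 at these ends in ORC1Δ cells. In ORC2Δ cells they did not fall steadily, with 0.20 under 1, a lowest median of -0.10 in the bin that ends at 1.5, and -0.04 from 2, and in ORC5Δ cells they ran only from 0.04 to -0.03.

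**Figure D3:**
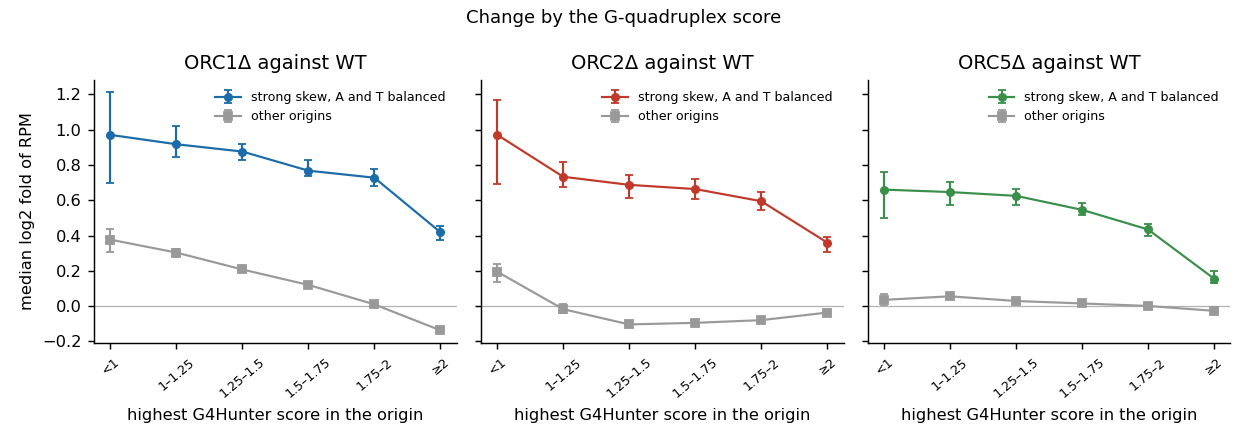
Median log2 fold of RPM over WT (y axis) by the highest G4Hunter score of the origin (x axis, higher for stronger G-quadruplex motifs) for strong-skew origins of the balanced class (colour) and other origins (grey); bars are 95% order-statistic intervals of the median. The coloured medians are lowest at a score of 2 or more in each line, at 0.42, 0.36, and 0.16.

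Strong-skew loci lay between genes more often than other loci. Of the 2277 loci, 57.0% (54.9 to 59.0%) overlapped a protein-coding or lncRNA gene, against 69.4% of all loci. Wholly in introns were 53.0% (51.0 to 55.1%), against 52.3%. Coding sequence was touched by 1.89% (1.41 to 2.53%) and 9.43%, and UTRs without coding sequence by 0.615% and 4.72%. Within 2 kb of the start of a protein-coding gene were 2.50% (1.94 to 3.23%) of strong-skew loci and 10.4% of all loci. Changes by gene position, strand, chromosome end, and gene were taken at loci overlapped by 1 origin of the table. Some of these origins were under the skew cutoff in that table, as was 1 in MUC16 at -0.694 in the table of ORC1Δ. Introns and the space between genes had similar values, as the median log2 fold in ORC1Δ cells was 0.70 at the 995 intronic loci measured in that table and 0.67 at the 808 between genes. The few loci at exons had lower medians, at 0.33 (0.11 to 0.52) for the 39 at coding sequence, 0.31 (-0.10 to 0.77) for the 13 at UTRs, and 0.44 (0.30 to 0.92) for the 28 at noncoding exons, and the intervals of the last 2 groups reached the median of the introns.

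The G-rich strand was the coding strand of the gene in 52.3% (49.5 to 55.1%) of the 1217 loci in genes of 1 strand, against 57.2% of all such loci. The classes differed. In the polypurine class 37.3% (29.8 to 45.5%; n = 142) had G on the coding strand, in the balanced class 53.9% (50.8 to 57.0%; n = 968), and in the GT class 57.0% (47.5 to 66.0%; n = 107). Orientation went with small differences in the change that were not alike in the 3 classes. Over all classes the median in ORC1Δ cells was 0.74 (0.69 to 0.79) with G on the coding strand and 0.66 (0.61 to 0.70) with G on the template strand. Within the balanced class these values were 0.75 (0.70 to 0.80) and 0.69 (0.65 to 0.74). The other classes went the other way with overlapping intervals, with 1.38 (1.12 to 1.71) and 1.56 (1.14 to 1.89) in the GT class and 0.11 (0.02 to 0.31) and 0.16 (0.07 to 0.28) in the polypurine class, and their medians had the same order in ORC2Δ and ORC5Δ cells.

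On the chromosomes, the loci gathered toward the ends. Within 5 Mb of a chromosome end lay 31.3% (29.4 to 33.2%) of strong-skew loci and 17.0% of all loci. The balanced class had 34.4% (32.2 to 36.6%) there and the GT class 29.7% (23.97 to 36.2%), while the polypurine class had 14.2% (10.7 to 18.6%). All loci of the same composition, those of strong skew included, had 16.7% (balanced), 41.3% (GT), and 21.6% (polypurine). Against loci of like composition, strong skew thus went with the ends in the balanced class alone, and the other classes went the other way. The median distance to the nearer end was 11.2 Mb for strong-skew loci and 22.9 Mb for all loci. Medians near the ends were slightly higher than those farther away, at 0.72 (n = 618 loci) and 0.67 (n = 1265 loci) in ORC1Δ cells. ORC2Δ cells had 0.62 (0.58 to 0.67) and 0.55 (0.52 to 0.57), and ORC5Δ cells had 0.44 and 0.40. The intervals overlapped in ORC1Δ and ORC5Δ cells but not in ORC2Δ cells.

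**Figure D4:**
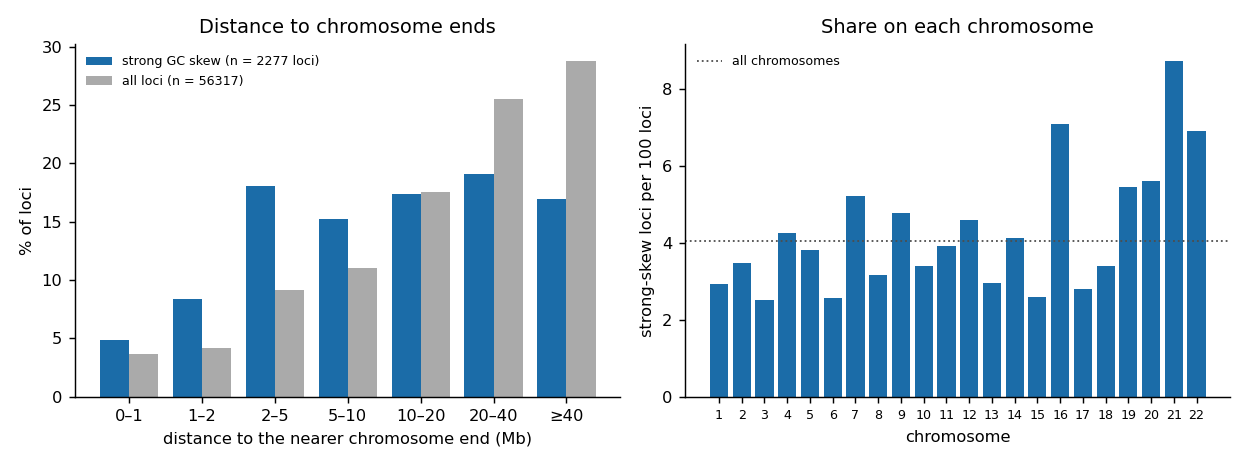
Left, share of loci (y axis, %) by distance to the nearer chromosome end (x axis, Mb) for loci with strong GC skew (blue) and all loci (grey); right, strong-skew loci per 100 loci on each autosome, with the value over all autosomes dotted. The blue bars exceed the grey ones up to 10 Mb, and chromosome 21 is highest at 8.73 per 100.

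Chromosome 21 had 62 strong-skew loci among 710, or 8.73 per 100. Chromosome 16 had 7.09 and chromosome 22 had 6.92 per 100, and the lowest were chromosomes 3 at 2.52 and 6 at 2.58. Chromosomes 17 and 19, which are rich in genes, differed, with 95 of 3404 and 187 of 3422 loci, or 2.79 and 5.46 per 100.

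A total of 1064 genes held a strong-skew locus, and 29 of them held 4 or more. The highest count was 14 of 58 loci in SORCS2, a sortilin-family receptor gene on chromosome 4. All 14 were intronic, and 9 were up in ORC1Δ cells. In ORC2Δ cells 9 were up, and in ORC5Δ cells 3 of the 11 measured. Their median log2 folds were 0.80, 0.76, and 0.50, and the other origins of SORCS2 had -0.17, -0.07, and 0.00. CDH4, which codes for a cadherin, and PTPRN2, which codes for a phosphatase-like protein of secretory granules, held 12 each. In PTPRN2 the 11 measured in ORC1Δ cells ranged from -0.48 to 2.05 with 9 up, while the other origins of the gene had a median of -0.20. Beside these counts, 60.2%, 51.0%, and 32.8% of all strong-skew origins were up in ORC1Δ, ORC2Δ, and ORC5Δ cells. Of all origins, 7.00%, 4.62%, and 2.05% were up.

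The lncRNA gene MIR3667HG, the postsynaptic scaffold gene SHANK2, and the zinc finger gene ZNF536 held 9 each. In MIR3667HG all 9 were balanced, and 8 of 9, 5 of 8, and 4 of 8 were up in the order ORC1Δ, ORC2Δ, ORC5Δ, with medians of 0.89, 0.75, and 0.60. In SHANK2 5 of 8, 3 of 9, and 2 of 8 were up, with medians of 0.64, 0.42, and 0.35. In ZNF536 6 of 9, 2 of 9, and 1 of 8 were up, with medians of 0.64, 0.49, and 0.34. RBFOX1, which codes for a splicing regulator, held 8, of which 4 were polypurine, and only 1 of the 4 measured in ORC1Δ cells was up. GSE1 held 7, RIMBP2 held 6, and CAMTA1, taken first in alphabetical order among the genes with 5, had medians of 1.40, 1.248, and 0.84. All strong-skew origins were up in 60.2%, 51.0%, and 32.8%, and all origins in 7.00%, 4.62%, and 2.05%. So few origins in a gene do not set these genes apart from other strong-skew origins. No strong-skew origin in these 10 genes was down in any line. Of all strong-skew origins only 0.174%, 0.218%, and 0.125% were down, so that none among so few is near that share.

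The origins that stood highest in all 3 lines were led by an intron of KLHDC4. This origin, chr16:87738543-87739637 in the table of ORC1Δ, had 86 WT and 472 ORC1Δ reads, 83 WT and 555 ORC2Δ reads, and 70 WT and 278 ORC5Δ reads. The log2 folds were 2.40 (2.06 to 2.74), 2.51 (2.17 to 2.86), and 1.68 (1.30 to 2.08), with 95% Clopper-Pearson intervals. All 3 knockout lines were thus well above WT, and ORC5Δ was the lowest of them. The stretch printed above shows its blocks of GATG between GT-rich spacers.

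The intronic origin of CACNG4, an auxiliary calcium channel subunit gene, was next, with 46 WT and 185 ORC1Δ reads, 46 WT and 197 ORC2Δ reads, and 48 WT and 183 ORC5Δ reads. Its log2 folds were 1.95 (1.47 to 2.45), 1.86 (1.40 to 2.36), and 1.62 (1.16 to 2.11). An intron of the lncRNA gene ENSG00000255931 followed with 1.64, 1.98, and 1.47. Between genes, the origin 2731 bp from TIMM22 had 81 WT and 412 ORC2Δ reads and log2 folds of 1.69, 2.11, and 1.44.

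The other 8 of the 12 highest were origins near PIGG, ANKRD18A, RXRA, MXRA8, and ZBTB40, in introns of C4orf50 and DIRC3-AS1, and at a UTR of KNDC1. Their log2 folds ranged from 1.35 to 2.22 over the 3 lines. None of the 12 was on the WT list, and all had T in excess of A on the G-rich strand. These origins were chosen for values in the same direction and of large size, so their direction is no finding.

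**Figure D5:**
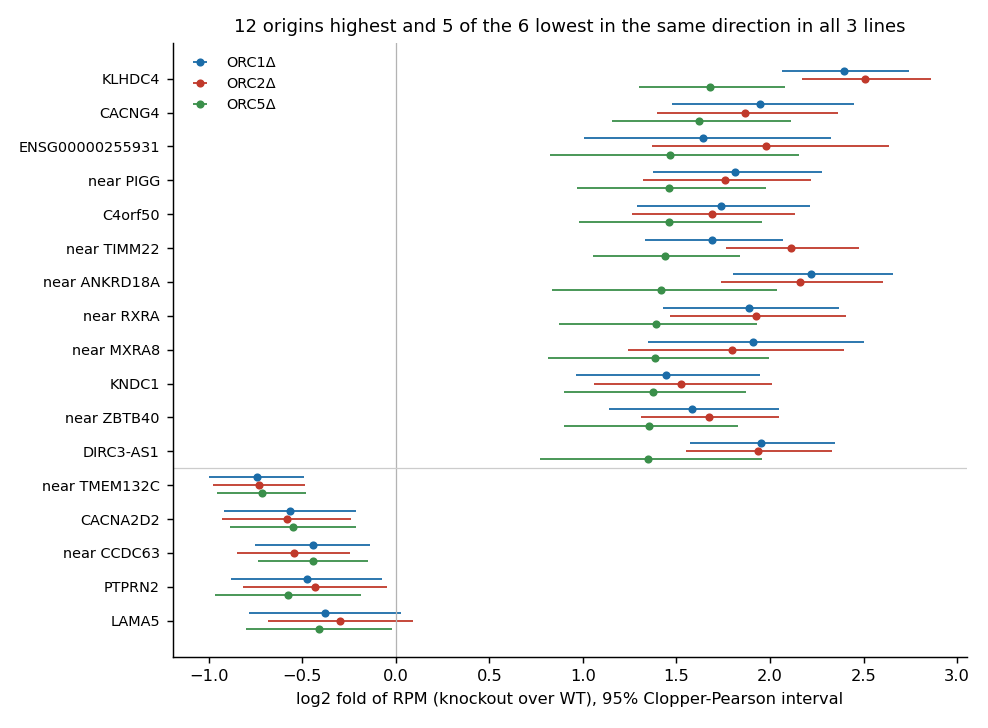
Log2 fold of RPM over WT (x axis) with 95% Clopper-Pearson intervals, in ORC1Δ (blue), ORC2Δ (red), and ORC5Δ (green) cells, for the 12 strong-skew origins highest and 5 of the 6 lowest by their smallest change over the 3 lines. The 12 highest range from 1.35 to 2.51, and the 5 shown of the lowest from -0.74 to -0.30.

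Of the 6 lowest, 5 are described, which were all on the WT list and had A in excess of T. The origin near TMEM132C, printed above, had 334 WT and 208 ORC1Δ reads, 334 WT and 237 ORC2Δ reads, and 337 WT and 254 ORC5Δ reads. Its log2 folds were -0.74 (-1.0004 to -0.49), -0.73 (-0.97 to -0.48), and -0.72 (-0.96 to -0.48). It was the only one of the 1144 loci with 1 strong-skew origin in each table that was down in all 3 lines, where 362 were up in all 3. The share of all loci called in all 3 lines together is not given here. In the single lines all origins were up in 7.00%, 4.62%, and 2.05% and down in 3.95%, 3.61%, and 0.682%. CACNA2D2, another auxiliary calcium channel subunit gene, had -0.56, -0.58, and -0.55. The origin near CCDC63 and those in introns of PTPRN2 and LAMA5, a laminin gene, had -0.58 to -0.30.

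None of the 5 strongest strong-skew origins of WT cells passed 1.5-fold in any line. All origins were up in 7.00%, 4.62%, and 2.05% and down in 3.95%, 3.61%, and 0.682%, so that none of 5 is near those shares. All strong-skew origins were up in 60.2%, 51.0%, and 32.8%, but 5 origins picked for their WT reads are too few for a comparison. BFSP2, a lens filament gene, held the strongest, with 1696 WT and 1882 ORC1Δ reads, 264 and 281 RPM, and log2 folds of 0.09, -0.06, and -0.18. PNPLA7, a phospholipase gene, had 246 RPM in WT and log2 folds of 0.43, 0.38, and 0.22. The origins of DLGAP2, near SLC6A19, and of PGBD5 had 0.41, 0.39, and -0.18 in ORC1Δ cells.

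At the extremes of skew, the origin near KCNF1 had no cytosine on its G-rich strand. It was an origin of the ORC2Δ table, with 12 WT and 132 ORC2Δ reads and a log2 fold of 3.23 (2.37 to 4.21). The GGAT repeat near C16orf95 had 52 WT and 90 ORC2Δ reads (0.56, 0.05 to 1.08). Polypurine origins in introns of DENND2A and TRIQK and near AJAP1 had 1.15 in ORC2Δ, 0.81 in ORC5Δ, and 0.35 in ORC1Δ cells. The GT origin near C1orf174, printed above, had 4 WT and 96 ORC2Δ reads and a log2 fold of 4.35 (2.95 to 6.26). None of the origins in this paragraph was on the WT list. Each entered through a peak of the knockout line quoted, so that its rise is no finding.

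At the cutoff, the 2 origins just inside it in the table of ORC1Δ, on chromosomes 19 and 22, had log2 folds of 0.12 and 0.54. The 2 just outside, on chromosomes 16 and 2, had -0.06 and 0.90.

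Among the gene lists, no strong-skew locus lay in the 18 genes of licensing, which hold 12 loci in all. Over the series 2277 of 56317 loci have strong skew, so that a count of 0 among 12 is near that share. The 10 mucin genes held 10 strong-skew loci of 58, in MUC2, MUC4, MUC5AC, and MUC16, which code for mucins, the glycoproteins of mucus. Only 1 of the 10, in MUC2, touched coding sequence. Of these, 8 of 10 were up in ORC1Δ cells, 5 of 10 in ORC2Δ cells, and 4 of 9 in ORC5Δ cells. All strong-skew origins were up in 60.2%, 51.0%, and 32.8%, and all origins in 7.00%, 4.62%, and 2.05%, and so few loci do not set mucin genes apart from other strong-skew origins. The 2 in introns of MUC5AC, a secreted mucin gene, had 1.64 and 1.07 in ORC1Δ cells and 1.94 and 0.998 in ORC2Δ cells. MACROD2 and CNTNAP2, large genes of fragile sites, held 1 strong-skew locus each. The MACROD2 origin had a log2 fold of 0.18 (-0.29 to 0.66) in ORC1Δ cells. The CNTNAP2 origin had 169 WT and 434 ORC1Δ reads and a log2 fold of 1.30 (1.04 to 1.57).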

How the data were processed

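SNS-seq of 4 HCT116 p53−/− lines was analysed. Per the labels and the study's methods, the authors trimmed reads with Trim Galore 0.6.4, aligned them with Bowtie to GRCh38, called MACS2 peaks per replicate, kept the shared ones, and deposited peak lists and 3 tables of raw read counts with replicates merged. The counting tool and the handling of duplicate reads and of reads with several matches are not given in the sources used here, which bears on origins made of repeats. Each line had 6416892 to 8523971 reads in a table, with a median of 110 to 137 reads at an origin. PCR duplicates are not independent molecules, so intervals cover counting error only.

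Counts were scaled to RPM by the total of the line, with no filter or pseudocount. Genes were GENCODE release 44. The shares have 95% Wilson and the medians 95% order-statistic intervals. No p-value was computed, since each line is 1 merged column. Origins were named by fixed rules: for the highest (12) and lowest (6), the change of least size among the 3 lines, with at least 100 reads in each table and one direction, the 5 strongest in WT, the 3 of highest and the 3 of lowest skew, genes with 4 or more loci (at most 10), gene lists, and the 2 on each side of the cutoff. Members, lists, and classes were chosen with earlier results of these data known. One of the lowest origins and a gene list total are not reported here. The calls, skew, and repeat search were tested on simulated data. Software was Python 3.11.15, numpy 2.4.6, pandas 2.3.3, pysam 0.24.0, and R 4.3.3 with edgeR 4.0.16.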

Additional observations from a re-analysis of the deposited data

Results flagged for a closer look

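The origin at the tip of the short arm of chromosome 5, whose nearest protein-coding gene is PLEKHG4B, drew attention because its lines moved in opposite directions. It lies at chr5:10235-10721 and its sequence is the telomeric hexamer repeat, with no guanine on the reference strand. It had 171 WT reads in each table, and 131, 273, and 266 reads in the ORC1Δ, ORC2Δ, and ORC5Δ lines. Its log2 fold was -0.44 (-0.78 to -0.11) without ORC1, 0.44 (0.16 to 0.73) without ORC2, and 0.33 (0.05 to 0.61) without ORC5. The difference between the lines was not tested, since each line is 1 merged column. How reads that match several telomeres were placed is not given in the sources used here.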

How the results depend on the processing

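No paired analysis was possible because the deposited columns merge the replicates of each line, and for the same reason no replicate could be left out. Of the values recomputed under other settings, 65 moved by less than their interval and 64 by more. Under settings added after seeing the data, those of the classes and of origins on both lists, 26 and 28 did. No median changed sign, and the shares cannot. All triplets are in the order ORC1Δ, ORC2Δ, ORC5Δ. The cause of these shifts was not tested, except that fewer origins or another definition entered where the setting says so.

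With a skew cutoff of 0.6, 48.95%, 40.03%, and 23.8% of origins were up with medians of 0.57, 0.47, and 0.32, 59.3% of loci were in a gene, 15.2% polypurine, and 28.9% within 5 Mb of an end. With 0.8, 69.2%, 62.8%, and 43.1% were up with medians of 0.79, 0.73, and 0.52, 9.04% of loci were polypurine and 34.8% near an end. With skew taken over 500 bp at the midpoint, 49.3%, 40.6%, and 25.2% were up with medians of 0.58, 0.47, and 0.32.

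On the WT list, 39.1%, 26.7%, and 14.3% were up with medians of 0.48, 0.38, and 0.26, and the difference from neighbours was 0.67, 0.51, and 0.35. There, 52.9%, 33.3%, and 6.67% of the GT class and 1.6%, 1.92%, and 0% of the polypurine class were up. On both lists, 39.7%, 27.6%, and 14.6% were up with medians of 0.48, 0.40, and 0.28.

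With the running median over GC content removed, 50.4%, 52.5%, and 31.5% were up and 0.407%, 0.218%, and 0.187% down, the medians were 0.59, 0.62, and 0.41, and the difference from neighbours 0.61, 0.64, and 0.42. Of the GT class 93.9%, 93.9%, and 64.1% were up, and of the polypurine class 4.0%, 12.1%, and 2.08%. At 2-fold, 25.3%, 22.2%, and 6.18% were up and 0%, 0.0544%, and 0% down, with 77.4%, 81.6%, and 23.4% of the GT class and 0%, 1.05%, and 0% of the polypurine class up.

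With at least 200 reads, the medians of ORC1Δ and ORC2Δ were 0.67 and 0.55, and 47.2% were up in ORC2Δ. The GT class was then up in 85.7%, 85.2%, and 50.0%, and the polypurine class in 2.22%, 1.55%, and 0%. In ORC2Δ cells TMM scaling by edgeR gave 54.3% up and a median of 0.63, scaling by the median of ratios 54.3% and 0.63, and leaving out shifted 5 Mb blocks 0.0560% down. Neighbours within 20 kb gave 0.43 in ORC5Δ. Per kb of length, the WT strength was 27.4, 25.3, and 27.3 RPM.

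With the class cut at 0.3, 87.7% of the GT class was up in ORC2Δ cells and 19.8% of loci were polypurine. At 0.7, 100% and 95.5% of the GT class was up in ORC1Δ and ORC2Δ cells and 6.24% of loci were polypurine. With protein-coding genes alone, 45.6% of loci were in a gene and 43.1% in introns, and by midpoint 55.7% were in introns. Exact repeats covered the stated share in 1.36% of loci with runs of at least 40 bases, and a lower share of 25% of the bases was reached by 11.9%. Within 2 Mb of an end lay 13.2% and within 10 Mb 46.6%. Depth limits the GT class most, with median counts of 32 to 65 WT reads.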

Other observations

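The orientation of the strong-skew classes in genes was shared by all loci of the same composition. Of all polypurine loci, 30.9% had the guanines on the coding strand, and of all loci of GT composition 63.5%. Both sets include the loci of strong skew. All 4 origin loci in THBS2, which codes for the matrix protein thrombospondin 2, had strong GC skew. They were balanced and intronic, overlapped THBS2-AS1, and had median log2 folds of 0.85, 0.78, and 0.29 without ORC1, ORC2, and ORC5. THBS2 was chosen after its values were seen. Strong-skew origins that hold at least 8 copies of GT had medians of 1.517, 1.45, and 0.60 in the 3 lines (43 loci), and those with at least 4 copies of GGAA had 0.34, 0.35, and 0.21 (128 loci).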
